A study of Homo sapiens with 16 samples.

Results

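The effect of SETD2 knockdown in cells given an ATR inhibitor and no other drug was followed across the expressed genes of U2OS cells. This human line was grown from an osteosarcoma and keeps wild-type p53. The comparison set 2 libraries of cells transfected with an siRNA against SETD2 (siSETD2) against 2 libraries of cells transfected with a non-targeting siRNA (siNT). All 4 received 2 µM of the ATR inhibitor VE-822 for 4 h and no hydroxyurea (HU), and RNA was taken 48 h after transfection. These are 4 of the 16 libraries of the study, whose other 12 hold the same siRNA pair with both drugs, with 2 mM HU, or untreated, again in 2 libraries a group. Genes entered where their mean over the 16 libraries was at least 1 FPKM (fragments per kilobase of exon, scaled for library depth by the authors), which kept 13088 of 58735. Both groups carry VE-822, so the comparison gives what siSETD2 did in its presence and not what the inhibitor did. The labels name 1 siRNA treatment for SETD2 and do not say that the 2 libraries of a group were separate cultures. Effects of the reagent on other transcripts therefore cannot be told apart from those of SETD2 loss, and the p-values rest on the spread among libraries alone, part or all of which may be technical.

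SETD2 is the enzyme that trimethylates lysine 36 of histone H3 (H3K36me3) over the bodies of transcribed genes, a mark read by DNA methyltransferases, mismatch repair and splicing factors. ATR is the kinase that responds to single-stranded DNA at stalled replication forks, restrains origin firing and activates CHK1, and VE-822 blocks it. Cells with DNA damage or stress can also switch on NF-kB, whose subunits drive chemokine and survival genes and their own inhibitors, and ATF4, which drives amino acid transporters and synthesis enzymes when amino acids run short or translation initiation is impaired. U2OS cells are of mesenchymal, bone tumour origin.

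The markers of that origin were present in part. The summed level of 8 mesenchymal and osteoblast markers was 339.3 and 341.5 FPKM in the siSETD2 libraries and 388.5 and 352.8 FPKM in the siNT libraries, with COL1A2 and CDH11 under a mean of 1 FPKM over the 16 libraries. Blood markers summed to 3.06 and 3.40 FPKM with siSETD2 and to 2.65 and 3.02 FPKM with siNT, nearly all of it CD3D, and endothelial markers stayed at or below 0.389 FPKM in all 4 libraries. Of 6 epithelial markers, summed at 63.4 and 68.7 FPKM with siSETD2 and at 61.1 and 59.1 FPKM with siNT, CDH1 and KRT19 were under the minimum. The part of these small differences in the results below was not tested.

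The 4 libraries stood apart from the other 12. They held 31101900 and 24987600 fragments with siSETD2 and 25993100 and 26019200 with siNT, as recovered from the FPKM values, within the 22310800 to 31101900 of the 16 libraries. On the first principal component, which carried 46.1% of the variance, they lay at 29.5 to 35.3, and the other 12 lay at -33.3 to 7.23. Their replicates were also closer to each other. The median difference between replicates was 0.104 with siSETD2 and 0.141 with siNT on the log2(FPKM + 1) scale, against 0.1795 to 0.326 in the other 6 groups. The test pools the spread of all 8 groups, so its errors are set in large part by libraries that vary more than these 4 did. The treatment and any handling shared by these 4 libraries cannot be told apart.

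SETD2 itself was at 4.63 and 3.96 FPKM in the siSETD2 libraries, against 9.25 and 8.87 FPKM in the siNT libraries. The groups did not overlap, and 47.3% of the transcript (ENSG00000181555, chr3:47016429-47163967, minus strand, GRCh38) remained. The log2 fold change was -0.93 (SE 0.251, limma, unadjusted p = 0.00345, Benjamini-Hochberg adjusted p = 1). In the other treatments, each with its own siNT libraries, it was -1.02 in HU with VE-822, -1.16 in HU and -1.23 in untreated cells. The difference between VE-822 alone and the mean of these 3 was 0.21 (SE 0.290, limma, unadjusted p = 0.489), so a shallower knockdown was not detected. The siSETD2 libraries of those treatments had 2.01 to 2.64 FPKM in replicate 1 and 3.67 to 4.17 FPKM in replicate 2. Knockdown of the message was partial, and H3K36me3 was not measured in these libraries.

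The other enzymes and readers of H3K36 methylation were close to their siNT levels. Of 37 listed genes tested, 10 had a log2 fold change above 0 and 27 below 0, with a median of -0.10, while 47% of all genes tested lay above 0 and their median was -0.01. Both siSETD2 libraries lay below both siNT libraries for 13 of the 37, SETD2 among them, where 23.1% of all genes did so. DNMT3A, a DNA methyltransferase that reads the mark, had 2.85 and 2.76 FPKM with siSETD2 against 3.16 and 3.72 FPKM with siNT (log2 fold change -0.22, unadjusted p = 0.0444). KDM4B, an H3K9 and H3K36 demethylase, had 1.04 and 1.27 against 1.40 and 1.63 FPKM, a log2 fold change of -0.22. The 4 writers and erasers above 0 had log2 fold changes between 0.03 and 0.13.

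No gene passed the threshold in either direction in the fit used here, which has no term for the replicate number. The lowest adjusted p over the 13088 genes was 0.952 (limma with Benjamini-Hochberg adjustment), and 0 genes (0%) were called higher or lower. At an unadjusted p under 0.05 there were 384 genes (2.93%), less than the 5% that this threshold passes when nothing differs: 238 (1.82%) were higher and 146 (1.12%) lower with siSETD2. A count-based fit, limma-voom on recovered fragments, also called 0 genes and had 363 at unadjusted p under 0.05. The split depended on scaling, with 304 higher and 46 lower when every library was scaled to the same sum of FPKM. Differences of some size leaned upward in the same way, with 208 genes (1.59%) above a log2 fold change of 0.5 and 122 (0.932%) below -0.5. Both siSETD2 libraries lay above both siNT libraries for 2519 genes (19.2%) and below them for 3022 (23.1%). The counts of calls depended on the error of the fit, which takes in a replicate shift shared by the other 6 groups. With a replicate block in those 6 groups, limma called 6 genes, all higher, and 1030 were at unadjusted p under 0.05. With a block over all 8 groups it called 0, and 738 were at that limit. The genes named below were chosen for their fold change or for their place in a gene list. Their fold changes carry no call in the fit used here, and "higher" and "lower" describe the values of these 4 libraries.

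**Figure D1:**
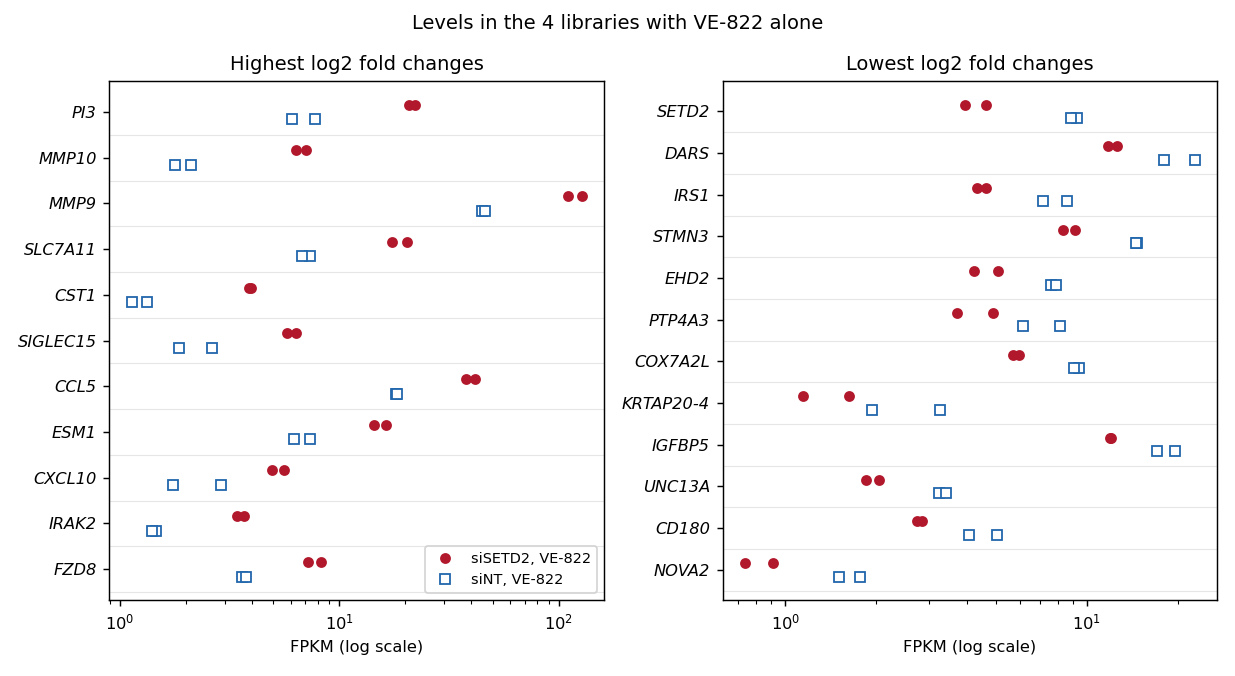
FPKM on a log axis in the 2 siSETD2 libraries (filled circles) and 2 siNT libraries (open squares) with VE-822 alone, for 11 of the 12 protein-coding genes of highest (left) and the 12 of lowest (right) log2 fold change whose groups do not overlap. PI3 has 20.7 and 22.2 FPKM with siSETD2 against 6.08 and 7.75 FPKM with siNT, SETD2 has 4.63 and 3.96 against 9.25 and 8.87 FPKM, and the separation of the groups was part of the choice of these genes.

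PI3 encodes elafin, an elastase inhibitor, and had 20.7 and 22.2 FPKM in siSETD2 libraries against 6.08 and 7.75 FPKM in siNT libraries. That is a 3.10-fold ratio of means and a log2 fold change of 1.51 (SE 0.394, unadjusted p = 0.00277). MMP10, the matrix metalloproteinase stromelysin 2, had 7.08 and 6.35 FPKM with siSETD2 against 1.77 and 2.10 FPKM with siNT (log2 fold change 1.39, SE 0.288, unadjusted p = 0.000517). It overlaps WTAPP1 on chromosome 11, and without strand their fragments cannot be told apart. MMP9, a gelatinase, had 110.5 and 127.5 FPKM with siSETD2 against 44.7 and 46.3 FPKM with siNT (log2 fold change 1.36, SE 0.574, unadjusted p = 0.0365). The ratios of means were 3.47 for MMP10 and 2.62 for MMP9, and in these 3 genes the gap between groups exceeded the gap within either.

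CST1, a secreted inhibitor of cysteine proteases, had 3.86 and 3.94 FPKM with siSETD2 against 1.13 and 1.33 FPKM with siNT. ESM1, a proteoglycan first known from endothelium, had 16.4 and 14.4 FPKM with siSETD2 against 7.32 and 6.23 FPKM with siNT. CST1 and ESM1 had log2 fold changes of 1.14 and 1.08 with unadjusted p-values of 0.15 and 0.225. Replicates of other groups varied more, and ESM1 was at 128.6 and 19.2 FPKM in untreated siSETD2 cells, which enter the pooled error. For both genes replicate 1 was above replicate 2 in each of the other 6 groups. With a replicate block in those groups CST1 was called (limma with Benjamini-Hochberg adjustment, adjusted p = 0.0066) and ESM1 was not. SIGLEC15, a sialic acid receptor, had 6.33 and 5.77 FPKM with siSETD2 against 1.86 and 2.63 FPKM with siNT, and FZD8, a Wnt receptor, had 7.20 and 8.21 against 3.61 and 3.74 FPKM.

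Among 26 tested genes of secreted proteolysis, 21 had log2 fold changes above 0 and 5 below 0, with a median of 0.19. Both siSETD2 libraries lay above both siNT libraries for 16 and below for 3, where 19.2% and 23.1% of all genes did so. Beside MMP10 and MMP9, the urokinase gene PLAU had 81.5 and 83.5 FPKM with siSETD2 against 59.9 and 54.2 FPKM with siNT (log2 fold change 0.53, unadjusted p = 0.0195). TIMP1, a metalloproteinase inhibitor, had 855.7 and 904.6 against 603.7 and 660.9 FPKM, a log2 fold change of 0.48 with an SE of 0.59. The proteases did not all lean one way. MMP3, the most abundant metalloproteinase of the list and named here after its values were seen, had 478.7 and 452.0 FPKM with siSETD2 against 480.2 and 362.9 FPKM with siNT, and these groups overlap. MMP16, a membrane-bound member also named afterwards, was lower at 17.4 and 15.7 FPKM against 20.1 and 21.9 FPKM (log2 fold change -0.33, unadjusted p = 0.0338).

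NF-kB genes had the highest median of the 19 lists described, 0.29 over 36 tested members. A log2 fold change above 0 was found in 35 of the 36, both siSETD2 libraries lay above both siNT libraries in 26 (19.2% of all genes), and 7 were higher at unadjusted p under 0.05 (1.82% of all genes), with IL6, named for this count after its value was seen, the member below 0. Leaving out 1 of the 4 libraries at a time kept between 30 and 34 members above 0, with medians of 0.30 to 0.36. The chemokine CCL5, which recruits T cells, had 41.5 and 37.95 FPKM in siSETD2 libraries against 18.1 and 18.3 FPKM in siNT libraries. Its replicates differed far less than its groups, and its log2 fold change was 1.09 (SE 0.231, unadjusted p = 0.000654). CXCL10, a chemokine driven by interferon and NF-kB, had 5.62 and 4.96 FPKM against 2.88 and 1.74 FPKM (log2 fold change 0.95, SE 0.218, unadjusted p = 0.00117). CXCL8, the neutrophil chemokine interleukin 8, had 89.7 and 78.4 FPKM against 50.4 and 45.9 FPKM, and its log2 fold change of 0.79 had an SE of 0.498. CCL20, named after its values were seen, had 26.7 and 23.0 FPKM against 15.04 and 14.5 FPKM.

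Among the signalling members, IRAK2, a kinase of interleukin 1 and Toll-like receptor signalling, had 3.68 and 3.43 FPKM with siSETD2 against 1.46 and 1.41 FPKM with siNT (log2 fold change 0.90, SE 0.211, unadjusted p = 0.0013). BIRC3, an inhibitor of apoptosis that acts on the noncanonical NF-kB branch, had 64.6 and 50.6 against 32.2 and 31.0 FPKM (log2 fold change 0.84, unadjusted p = 0.0167). TNFAIP3, which encodes the feedback inhibitor A20, had 15.5 and 15.3 FPKM against 8.27 and 9.73 FPKM (log2 fold change 0.72, unadjusted p = 0.016). Of the subunits, which were named after their values were seen, NFKB2 and NFKB1 had log2 fold changes of 0.51 and 0.36 with unadjusted p-values of 0.0167 and 0.0194. RELA, the main activating subunit, did not separate, at 15.4 and 16.9 FPKM with siSETD2 against 15.2 and 15.97 FPKM with siNT (log2 fold change 0.05). All 20 tested members of the subunit and feedback group lay above 0, with a median of 0.17, and 15 of 16 cytokine and surface targets did, with a median of 0.47.

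Promoter sequences from RefSeq on GRCh38.p14 are shown for 5 genes described here whose windows hold a motif match, as examples chosen after the values were seen. Each window runs from 250 bases before to 50 bases after the annotated start site, 5′ to 3′ on the gene's strand. Capitals mark an NF-kB core (GGG, any 2 bases, then TTTCC) in the first 4 and an AP-1 core (TGANTCA) in MMP10, searched on both strands.
BIRC3 (chr11:102317234-102317533, plus strand): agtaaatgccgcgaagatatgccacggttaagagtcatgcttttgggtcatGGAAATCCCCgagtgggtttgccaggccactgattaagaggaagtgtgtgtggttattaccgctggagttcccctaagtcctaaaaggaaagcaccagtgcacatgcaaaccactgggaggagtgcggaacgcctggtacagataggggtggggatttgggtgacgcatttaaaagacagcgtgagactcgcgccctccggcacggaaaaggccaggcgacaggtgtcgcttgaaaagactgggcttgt
TNFAIP3 (chr6:137867009-137867308, plus strand): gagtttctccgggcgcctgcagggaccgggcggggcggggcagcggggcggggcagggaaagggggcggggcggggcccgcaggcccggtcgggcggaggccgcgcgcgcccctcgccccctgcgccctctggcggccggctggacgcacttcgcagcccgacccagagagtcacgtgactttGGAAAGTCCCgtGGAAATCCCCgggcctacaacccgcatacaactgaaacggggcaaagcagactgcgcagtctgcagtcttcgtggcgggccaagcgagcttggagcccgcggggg
TAP1 (chr6:32853655-32853954, minus strand): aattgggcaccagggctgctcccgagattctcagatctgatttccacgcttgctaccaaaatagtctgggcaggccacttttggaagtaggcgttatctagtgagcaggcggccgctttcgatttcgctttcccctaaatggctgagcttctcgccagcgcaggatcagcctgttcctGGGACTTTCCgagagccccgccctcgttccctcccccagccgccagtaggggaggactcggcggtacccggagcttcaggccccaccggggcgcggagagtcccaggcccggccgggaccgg
B2M (chr15:44711267-44711566, plus strand): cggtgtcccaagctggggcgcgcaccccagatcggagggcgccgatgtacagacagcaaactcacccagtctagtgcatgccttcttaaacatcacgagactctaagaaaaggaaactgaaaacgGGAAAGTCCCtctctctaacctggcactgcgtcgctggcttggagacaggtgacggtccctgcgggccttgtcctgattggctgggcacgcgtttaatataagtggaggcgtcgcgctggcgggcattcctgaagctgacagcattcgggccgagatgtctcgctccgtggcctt
MMP10 (chr11:102780579-102780878, minus strand): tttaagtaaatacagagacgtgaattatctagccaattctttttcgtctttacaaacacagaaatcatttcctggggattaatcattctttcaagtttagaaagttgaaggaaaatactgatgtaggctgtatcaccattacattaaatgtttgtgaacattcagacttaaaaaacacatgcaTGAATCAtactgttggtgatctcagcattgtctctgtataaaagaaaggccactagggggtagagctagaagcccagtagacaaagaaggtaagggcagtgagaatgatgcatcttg
The matches begin at position -199 in BIRC3, at -67 and -55 in TNFAIP3, at -72 in TAP1, at -125 in B2M and at -67 in MMP10, counted from the start site. The NF-kB core occurs in 1.92% of the 27305 RefSeq promoters searched. It occurs in 10 of the 30 NF-kB list genes with a window (33.3%), IL6, the member below 0, among them, and in 3 of 11 antigen presentation genes. The AP-1 core occurs in 7.76% of all promoters, in 1 of 6 windows among the 12 highest genes, MMP10, and in 1 of 10 among the 12 lowest. The C/EBP-ATF composite core TGATGNAAT occurs in 1.02% of all promoters and in 1 of 36 ATF4 list genes. The antioxidant response core TGACNNNGC occurs in 13.6% of all promoters and in 11 of those 36. Across the lists it ranged from 0 of 21 matrix genes to 2 of 6 mismatch repair genes. It occurs in 5 of 18 NRF2 list genes and in 7 of 24 p53 targets. A match is a run of letters and not evidence of binding.

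Genes of MHC class I antigen presentation were higher by small, even amounts. Of 13 tested, 12 had a log2 fold change above 0 (median 0.20), both siSETD2 libraries lay above both siNT libraries in 8 (19.2% of all genes), and none was at unadjusted p under 0.05. B2M, the class I light chain, had 155.3 and 146.3 FPKM with siSETD2 against 127.1 and 122.7 FPKM with siNT. TAP1, which pumps peptides into the endoplasmic reticulum, had 20.49 and 22.7 FPKM against 18.1 and 18.8 FPKM (log2 fold change 0.22, unadjusted p = 0.0793), and it overlaps PSMB9. TAPBP, which loads them, had 73.8 and 77.7 against 63.0 and 62.7 FPKM. Interferon-stimulated genes were divided. The median of 31 was 0.07, with 19 above and 12 below 0, and it was -0.03 without siNT replicate 2 and 0.15 without siNT replicate 1. IFIT2, an RNA-binding antiviral protein, had 28.0 and 23.8 FPKM with siSETD2 against 20.7 and 15.3 FPKM with siNT. TRIM22, another antiviral protein, had 4.74 and 4.48 against 6.65 and 5.45 FPKM.

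**Figure D2:**
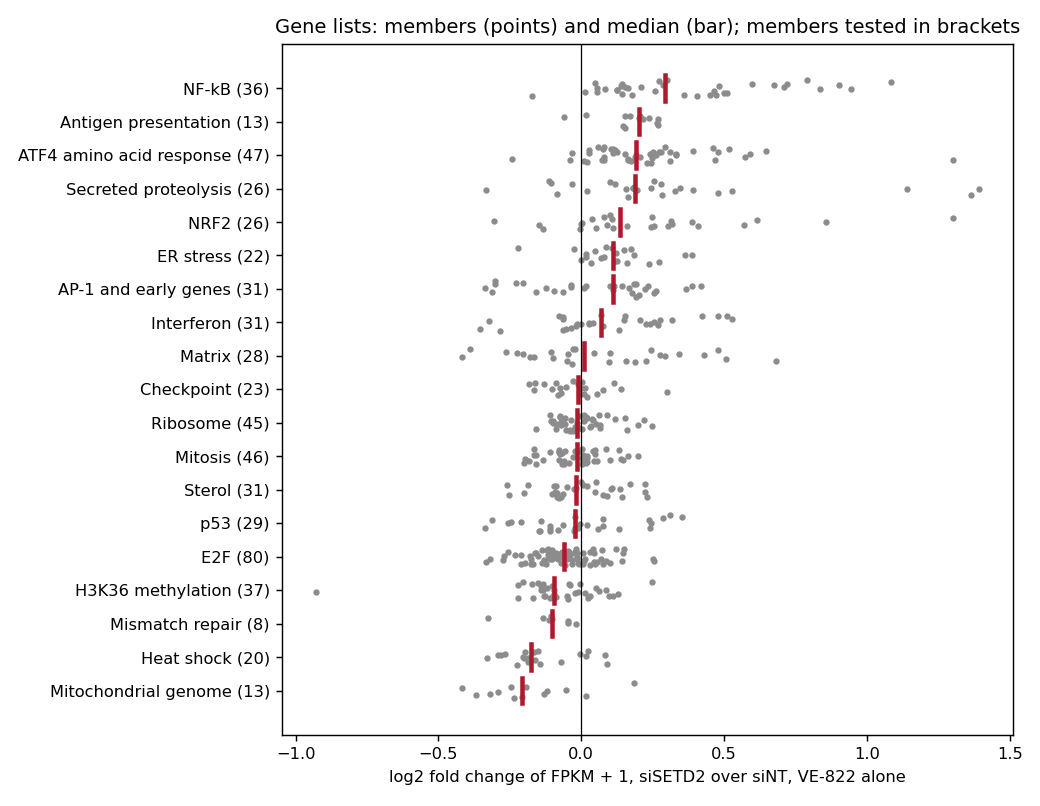
log2 fold change of FPKM + 1, siSETD2 over siNT with VE-822 alone, for each tested member of 19 gene lists (grey points) and the list's median (red bar), sorted by median. NF-kB is at the top with a median of 0.29 and the mitochondrial genome at the bottom with -0.21; the median of all 13088 genes is -0.01.

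Amino acid transporters of the ATF4 response were higher. SLC7A11, the cystine importer, had 20.4 and 17.4 FPKM in siSETD2 libraries against 7.32 and 6.78 FPKM in siNT libraries, a 2.68-fold ratio of means (log2 fold change 1.30, SE 0.356, unadjusted p = 0.0038). SLC3A2, the chain that partners SLC7A11 and SLC7A5 at the membrane, had 176.0 and 205.2 FPKM against 112.2 and 130.6 FPKM (log2 fold change 0.65, unadjusted p = 0.0119). Its other partner SLC7A5, a leucine transporter named after its values were seen, had 145.6 and 159.7 FPKM with siSETD2 against 111.0 and 108.7 FPKM with siNT (log2 fold change 0.47, SE 0.318). The glutamine transporter SLC1A5, named likewise, had 99.8 and 109.6 FPKM with siSETD2 against 76.4 and 74.9 FPKM with siNT (log2 fold change 0.46, unadjusted p = 0.0173). All 8 tested transporters of the list lay above 0 (47% of all genes), 7 of them without overlap of the groups (19.2% of all genes), and their median was 0.47.

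The rest of the ATF4 list differed less. Amino acid synthesis had a median of 0.18 over 10 genes, stress factors 0.25 over 15, and tRNA synthetases 0.08 over 14, and over the whole list 44 of 47 tested genes lay above 0 with a median of 0.19. ASNS, asparagine synthetase, had 1.89 and 2.02 FPKM with siSETD2 against 0.965 and 1.01 FPKM with siNT (log2 fold change 0.57, unadjusted p = 0.00703). CHAC1, which degrades glutathione, had 2.62 and 3.03 against 1.36 and 1.72 FPKM (log2 fold change 0.59, unadjusted p = 0.0216). The transcript of ATF4 itself, named after its values were seen, had 91.2 and 95.6 FPKM with siSETD2 against 70.8 and 87.1 FPKM with siNT (log2 fold change 0.25, SE 0.192). Chaperones and sensors of endoplasmic reticulum stress had a median of 0.11 over 22 genes. XBP1, a transcription factor of that response, had 50.5 and 53.1 FPKM with siSETD2 against 40.9 and 37.9 FPKM with siNT.

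NRF2 targets overlapped these groups through SLC7A11. Of 26 tested, 22 lay above 0 (47% of all genes), 4 were higher at unadjusted p under 0.05 (1.82% of all genes), and the median was 0.14. ABCC2, an efflux pump for drug and glutathione conjugates, had 6.83 and 6.60 FPKM in siSETD2 libraries against 3.28 and 3.24 FPKM in siNT libraries. Replicates of each group were nearly equal, and the log2 fold change was 0.86 (SE 0.214, unadjusted p = 0.00208). TXNRD1, thioredoxin reductase, had 52.4 and 49.8 FPKM against 37.4 and 31.1 FPKM (log2 fold change 0.57, unadjusted p = 0.0313). GCLC, the catalytic subunit of glutathione synthesis, had 13.7 and 13.8 FPKM against 10.2 and 10.4 FPKM (log2 fold change 0.39, unadjusted p = 0.0428). The gene for NRF2, NFE2L2, was at 11.4 and 11.8 FPKM with siSETD2 against 11.02 and 9.54 FPKM with siNT, named after its values were seen.

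At the lower end, SETD2 had the lowest log2 fold change of the protein-coding genes whose groups did not overlap. DARS, the aspartyl-tRNA synthetase, followed with 11.8 and 12.6 FPKM in siSETD2 libraries against 22.9 and 18.0 FPKM in siNT libraries (log2 fold change -0.69, SE 0.403, unadjusted p = 0.115). The tRNA synthetase group of the ATF4 list, to which DARS does not belong, ranged from -0.04 to 0.23. IRS1, the adaptor of the insulin and IGF1 receptors, had 4.34 and 4.62 FPKM against 7.14 and 8.59 FPKM (log2 fold change -0.69, SE 0.243, unadjusted p = 0.0163). EHD2, a protein of caveolar necks, had 4.24 and 5.10 FPKM against 7.60 and 7.89 FPKM (log2 fold change -0.63, SE 0.195, unadjusted p = 0.00805). COX7A2L, which joins respiratory complexes into supercomplexes, had 5.98 and 5.67 FPKM with siSETD2 against 9.41 and 9.11 FPKM with siNT (log2 fold change -0.59, SE 0.152, unadjusted p = 0.00266). In these genes the siSETD2 libraries kept between 0.57 and 0.63 of the siNT mean.

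The remaining genes of the lower end had low or variable levels. STMN3, a neuronal relative of stathmin, had 8.34 and 9.12 FPKM against 14.7 and 14.6 FPKM, and the phosphatase gene PTP4A3 had 3.71 and 4.89 against 6.13 and 8.13 FPKM. IGFBP5, which binds insulin-like growth factors, averaged 11.98 FPKM in the siSETD2 libraries (SD 0.029, n = 2), against 17.0 and 19.6 FPKM with siNT, with a log2 fold change of -0.57 and an SE of 0.674. CD180, a Toll-like receptor homologue best known in B cells, had 2.73 and 2.85 FPKM against 5.04 and 4.06 FPKM. UNC13A and NOVA2, which act in synaptic vesicle priming and neuronal splicing, had 0.58 and 0.50 of their siNT means. KRTAP20-4, a keratin-associated gene, was at 1.15 and 1.63 against 1.94 and 3.27 FPKM.

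Matrix genes split in both directions. Of 28 tested, 14 lay above 0 and 14 below, with a median of 0.01. COL4A2, a chain of basement membrane collagen, had 32.5 and 36.6 FPKM with siSETD2 against 19.5 and 23.0 FPKM with siNT (log2 fold change 0.68, unadjusted p = 0.0307), and it overlaps its partner COL4A1, whose log2 fold change was 0.43. COL6A1 had 167.6 and 197.6 FPKM against 116.9 and 145.7 FPKM (log2 fold change 0.48, unadjusted p = 0.0369). The fibrillar chains COL11A1 and COL5A2 were lower, with log2 fold changes of -0.42 and -0.39 and no overlap of the groups. AP-1 and early genes were divided as well, 19 above and 12 below 0. JUNB, an AP-1 subunit, had 52.2 and 59.1 FPKM with siSETD2 against 35.8 and 47.7 FPKM with siNT. PHLDA1, an early gene, had 6.40 and 6.64 against 8.41 and 8.62 FPKM (log2 fold change -0.34, unadjusted p = 0.0479).

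Lists tied to replication, the checkpoint and p53 had medians between -0.06 and -0.01. The E2F list had a median of -0.06 over 80 genes, 22 above and 58 below 0 (47% of all genes lay above 0), the checkpoint and fork list -0.01 over 23, the mitosis list -0.02 over 46, and p53 targets -0.02 over 29. These medians moved with the scaling: with libraries scaled to the same sum, the checkpoint, mitosis and p53 medians were 0.05, 0.04 and 0.03 and the E2F median -0.01, beside a median of all genes of 0.04. They also moved with the siNT libraries: without siNT replicate 2 the E2F median was -0.13, the mitosis median -0.11 and the checkpoint median -0.15, and without siNT replicate 1 they were -0.01, 0.07 and 0.06. MCM4, a replicative helicase subunit, had 31.3 and 31.8 FPKM with siSETD2 against 43.4 and 37.0 FPKM with siNT, and RRM2, the regulatory subunit of ribonucleotide reductase, had 9.83 and 9.05 against 8.78 and 6.83 FPKM. Among p53 targets the death receptor TNFRSF10B was higher, at 48.6 and 50.1 FPKM against 37.97 and 38.8 FPKM (log2 fold change 0.35, unadjusted p = 0.00957), and the phosphatase PPM1D was lower, at 5.84 and 5.82 against 8.10 and 7.19 FPKM (log2 fold change -0.34, unadjusted p = 0.0372). TNFRSF10B overlaps RHOBTB2.

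All 8 mismatch repair genes lay below 0, with a median of -0.10, but the median was -0.18 without siNT replicate 2 and -0.01 without siNT replicate 1, and with 1 library left out between 4 and 8 of them lay below 0. PMS2, a mismatch repair endonuclease, had 7.99 and 6.74 FPKM with siSETD2 against 10.8 and 8.32 FPKM with siNT (log2 fold change -0.33, unadjusted p = 0.0321). Heat shock chaperones had a median of -0.18 over 20 genes, with 16 below 0 and 13 below without overlap of the groups (23.1% of all genes); the median was -0.10 without siSETD2 replicate 1. HSP90AB1, the constitutive cytosolic HSP90, had 1032 and 1109 FPKM with siSETD2 against 1418 and 1212 FPKM with siNT. Transcripts of the mitochondrial genome had a median of -0.21 over 13 genes. MT-ND5, a complex I subunit, had 2908 and 2783 FPKM against 3905 and 3703 FPKM, while sterol synthesis genes had a median of -0.02 over 31. Cytosolic ribosomal proteins had a median of -0.01 over 45, which was -0.12 without siNT replicate 1 and 0.11 without siNT replicate 2.

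**Figure D3:**
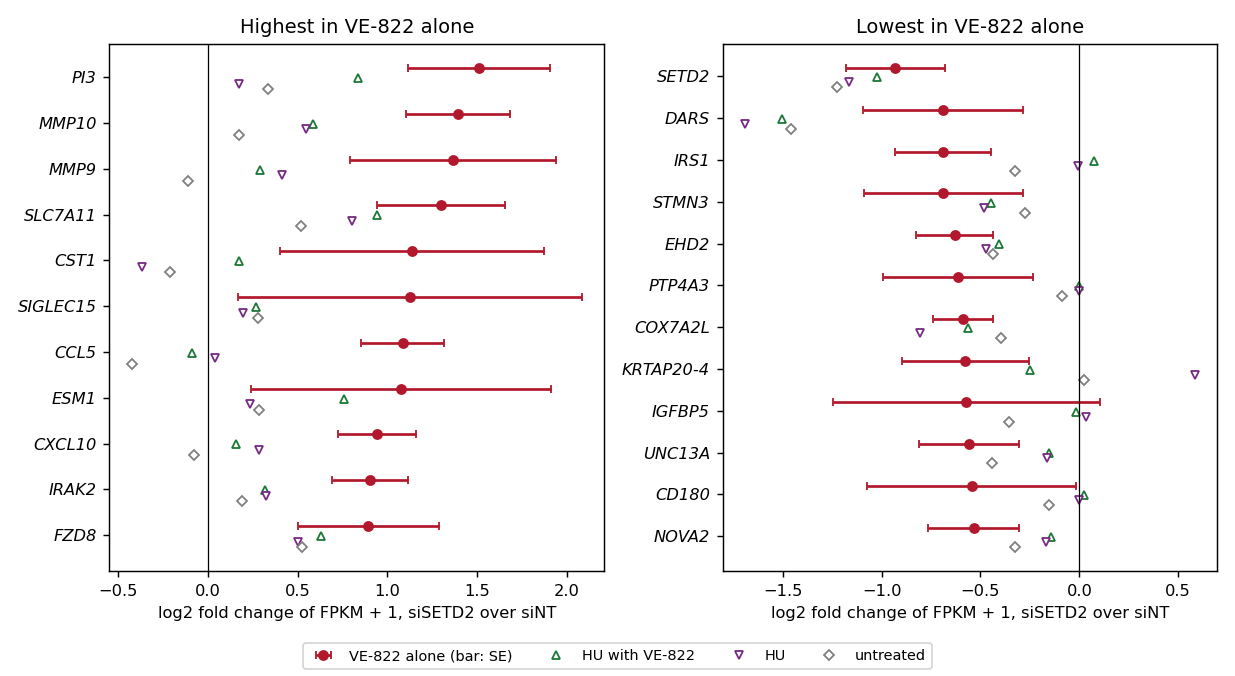
log2 fold change of FPKM + 1, siSETD2 over siNT, in VE-822 alone (filled circles, bar of 1 SE either side) and in HU with VE-822, HU and untreated cells (open symbols), for 11 of the 12 highest and the 12 lowest genes in VE-822 alone. CCL5 is at 1.09 in VE-822 alone and at -0.09, 0.04 and -0.42 in the others, while SETD2, DARS, EHD2 and COX7A2L are below 0 in all 4.

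Whether these differences were particular to VE-822 alone was tested as the siSETD2 effect there minus the mean of the effects in the other 3 treatments. No gene passed (limma with Benjamini-Hochberg adjustment, 0%), and at an unadjusted p under 0.05 there were 105 genes (0.802%) with a higher effect in VE-822 alone and 45 (0.344%) with a lower one. With a replicate block in the other 6 groups, 1 gene passed, CST1, with a difference of 1.27 (same test, adjusted p = 0.0183). The named genes were chosen by their fold change in VE-822 alone, which is also a term of this difference. Their low unadjusted p-values here are therefore in part a result of that choice. In the fit without a block, CCL5 had the clearest difference of the named genes, 1.24 (SE 0.267, unadjusted p = 0.000704). In its levels, siSETD2 libraries had 5.77 and 6.87 FPKM in HU with VE-822, 5.98 and 4.89 in HU and 5.43 and 2.68 in untreated cells, against siNT libraries with 7.78 and 5.84, 5.55 and 4.93, and 6.24 and 4.87 FPKM. CCL5 was higher in VE-822 alone in both siRNA groups than elsewhere, and the groups separated there and overlapped in the other 3. By the same limma test, CXCL10 had a difference of 0.82 (unadjusted p = 0.00735), TAP1 of 0.42 (unadjusted p = 0.00811) and ABCC2 of 0.76 (unadjusted p = 0.0103). The difference was 0.96 for MMP10, 0.36 for TNFRSF10B, 0.52 for ASNS, 0.63 for IRAK2, 1.06 for PI3, 0.46 for TAPBP and -0.45 for PHLDA1. Each of these was also at an unadjusted p under 0.05. SLC7A11 was not, with 0.54 (unadjusted p = 0.212) and fold changes above 0 in every treatment. CXCL10 averaged 0.713, 0.554 and 0.268 FPKM with siSETD2 in HU with VE-822, HU and untreated cells. With siNT it averaged 0.495, 0.275 and 0.336 FPKM. MMP10 averaged 1.39, 1.22 and 1.17 FPKM against 0.596, 0.509 and 0.840 FPKM, in the same order of treatments. Adding 1 FPKM shrinks fold changes at such levels, so the effects of both genes there are understated. How much of their differences comes from this was not tested.

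Separation of the groups was also counted in the other treatments for the 24 genes at the ends of the ranking. Of the 12 highest, 6 had both siSETD2 libraries above both siNT libraries in HU with VE-822 (13.1% of all genes), 5 in HU (9.85%) and 0 in untreated cells (9.64%). None did so in all 4 treatments, where 0.604% of all genes did, and MMP9, CST1, SIGLEC15 and CCL5 separated in VE-822 alone and in no other treatment. Replicates of the other treatments differed more, so overlap there does not show that a difference was absent. In HU with VE-822, HU and untreated cells, MMP9 had log2 fold changes of 0.29, 0.41 and -0.11. In that order SIGLEC15 had 0.27, 0.20 and 0.28, CST1 0.18, -0.37 and -0.21, and CCL5 -0.09, 0.04 and -0.42. Of the 12 lowest, 5 lay below in HU with VE-822 (11.2% of all genes), 5 in HU (16.3%) and 5 in untreated cells (13.5%). SETD2, the siRNA target, and DARS, EHD2 and COX7A2L lay below in all 4 treatments, where 1.24% of all genes did. DARS had 7.94 FPKM on average with siSETD2 against 22.5 FPKM with siNT in HU with VE-822, and its difference of effects was 0.86 (unadjusted p = 0.0908). Its siSETD2 libraries in the other treatments had 4.41 to 5.13 FPKM in replicate 1 and 10.1 to 11.4 FPKM in replicate 2, the same replicate being lower as for SETD2. In VE-822 alone the replicates did not share this order. There SETD2 had 4.63 FPKM in replicate 1 and 3.96 in replicate 2, and DARS had 11.8 and 12.6 FPKM. IRS1, STMN3, PTP4A3, IGFBP5 and CD180 separated in VE-822 alone and overlapped in the other 3 treatments. STMN3 was nevertheless below 0 in each, with log2 fold changes of -0.45 in HU with VE-822, -0.48 in HU and -0.28 in untreated cells. In those treatments IRS1, PTP4A3, IGFBP5 and CD180 ranged from -0.36 to 0.07. KRTAP20-4 separated in HU too, on the opposite side, with 1.17 and 1.57 FPKM with siSETD2 against 0.339 and 0.853 FPKM with siNT. Several of these had far higher levels in the VE-822-alone libraries of both groups: PTP4A3 averaged 4.30 FPKM with siSETD2 and 7.13 FPKM with siNT there. It averaged 0.882 and 1.02 FPKM in untreated cells and 0.896 and 0.874 FPKM in HU with VE-822. IGFBP5 averaged 11.98 and 18.3 FPKM in VE-822 alone, in the same order of groups. It averaged 1.46 and 2.13 FPKM in untreated cells and 2.28 and 2.31 FPKM in HU with VE-822.

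**Figure D4:**
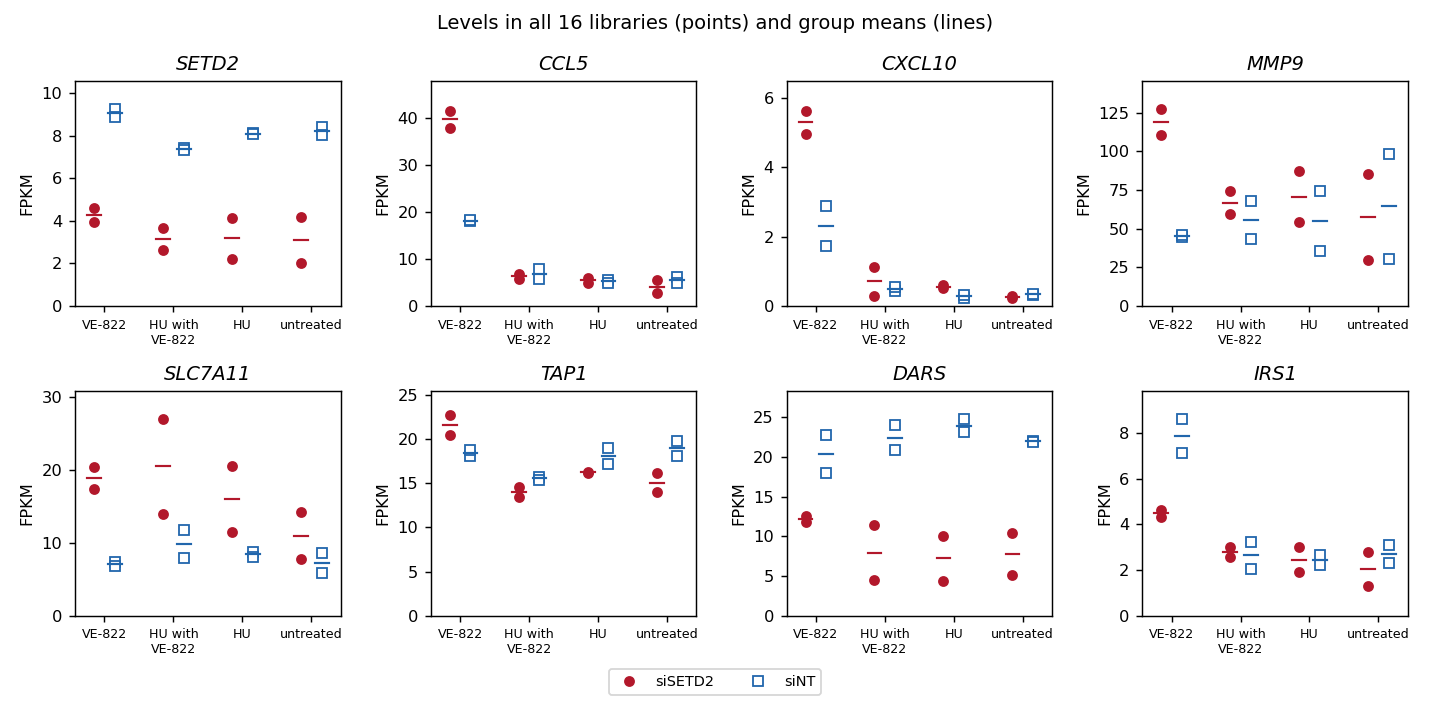
FPKM of 8 genes in all 16 libraries, siSETD2 (filled) left of siNT (open) in each treatment, with lines at the group means. CCL5, CXCL10 and IRS1 are higher in the VE-822-alone libraries of both siRNAs than elsewhere, DARS and SETD2 separate by siRNA in each treatment, and TAP1 is above siNT in VE-822 alone and below it in the other 3.

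Gene lists were set side by side in the 4 treatments; differences between list medians were not tested. The NF-kB median of 0.29 in VE-822 alone stood beside 0.14 in HU with VE-822, 0.08 in HU and 0.10 in untreated cells. Antigen presentation had 0.20 beside 0.02, -0.01 and -0.03, and secreted proteolysis 0.19 beside 0.10, 0.03 and -0.01. The ATF4 list had 0.19 in VE-822 alone and 0.20 in HU with VE-822, and 0.01 in HU and 0.09 in untreated cells, while its transporters had 0.47, 0.22, 0.07 and -0.08 in the same order. Heat shock chaperones were at -0.18 in VE-822 alone and at 0.08, -0.09 and 0.10 in the others. The mitochondrial genome was below 0 in each, at -0.21, -0.41, -0.15 and -0.20. Across all 13088 genes the log2 fold changes in VE-822 alone correlated with those in HU with VE-822 at r = 0.31, in HU at 0.32 and in untreated cells at 0.23, a description over genes that share libraries within a treatment but not between treatments.

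**Figure D5:**
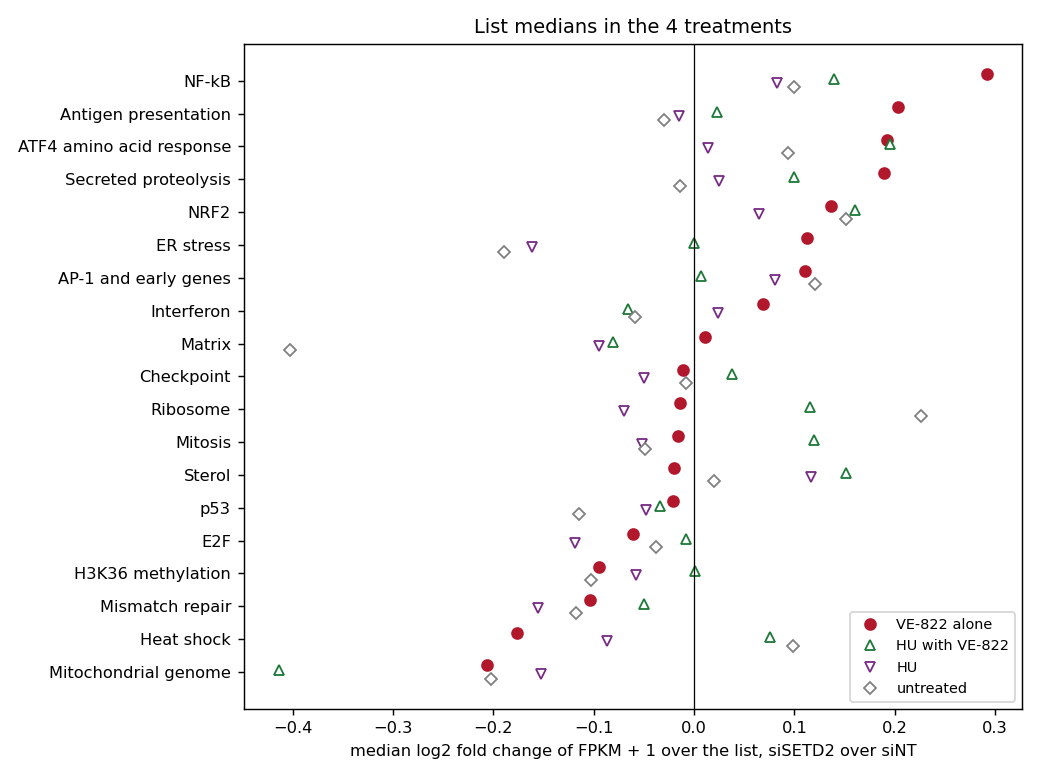
Median log2 fold change of FPKM + 1, siSETD2 over siNT, of each list in VE-822 alone (filled circles), HU with VE-822, HU and untreated cells (open symbols). NF-kB has 0.29 in VE-822 alone and 0.14 or less in the others, and the matrix list has 0.01 in VE-822 alone against -0.40 in untreated cells.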

How the data were processed

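RNA-seq of U2OS cells gave 16 libraries in 8 groups of 2, assigned to siRNA and treatment from the sample labels. The authors deposited FPKM values, 1 column per library without pooling. Per the submitters' processing notes, FastQC, STAR 2.6.1d, featureCounts 1.5.0-p3, DESeq2 1.26.0 and hg38 were used; their roles, the strand setting and the annotation release were not stated, so overlapping genes are uncertain. Gene symbols and positions came from GENCODE 29, which matched all 58735 identifiers, and with its exon lengths the FPKM values gave whole fragments for 100% of values within 0.01. The authors' depth denominators were 0.94 to 1.07 times the recovered totals.

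From these values, log2(FPKM + 1) was fitted with limma 3.58.1 in R 4.3.3 (trended variance, 1 mean per group, no replicate block, all 16 libraries) for the 13088 genes that averaged 1 FPKM or more. This scale understates the fold changes of low genes. P-values were adjusted by Benjamini-Hochberg over all genes tested, with a threshold of 0.05; unadjusted p-values in the text are from the same limma fit. A second contrast subtracted the mean siSETD2 effect of the other 3 treatments. The steps were tested on simulated data. Named were SETD2, the 12 highest and 12 lowest protein-coding genes whose groups did not overlap, and, from each list, members among the 6 of largest absolute fold change; of these 134 genes, 98 were followed through the alternatives for the text, a choice made after values were seen, and some are not reported here. Other genes are said to be named after their values were seen. The comparison, the genes and the lists were chosen with earlier results of these data known. Alternatives covered the pseudocount, low-value filter, scaling, libraries in the fit, replicate block, limma-voom and leaving out each library.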

Additional observations from a re-analysis of the deposited data

Results flagged for a closer look

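In 16 instances over 14 named genes, both siSETD2 libraries lay on one side of both siNT libraries in VE-822 alone and on the opposite side in another treatment. Of all genes tested, 9.64% had both siSETD2 libraries above and 13.5% below both siNT libraries in untreated cells. The shares were 9.85% and 16.3% in HU, and 13.1% and 11.2% in HU with VE-822. How many of all genes took opposite sides was not counted, so the 16 instances cannot be set against that share. The difference within any single pair of treatments was not tested. Against the mean of the other 3 treatments the adjusted p (limma with Benjamini-Hochberg adjustment) was 1 for every one of these genes.

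TAP1 was opposite in each of the other treatments, with log2 fold changes of -0.14 in HU with VE-822, -0.15 in HU and -0.32 in untreated cells. Its levels were 14.0 and 16.1 FPKM in untreated siSETD2 cells against 19.8 and 18.1 FPKM in untreated siNT cells. TAPBP was at -0.33 in untreated cells, with 36.1 and 40.5 FPKM against 47.4 and 49.6 FPKM.

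Also in untreated cells, COL4A1 had -0.42, COL6A1 -0.20, HBEGF -0.20, TNFRSF10B -0.17 and CXCL10 -0.08. COL4A1 had 10.3 and 15.5 FPKM with siSETD2 there, against 16.5 and 18.1 FPKM with siNT, and CXCL10 had 0.235 and 0.301 against 0.318 and 0.354 FPKM. In HU, CXCL8 had -0.29, FAS -0.27, XBP1 -0.24 and HERPUD1 -0.22, all being above 0 in VE-822 alone. CXCL8 had 47.2 and 38.6 FPKM with siSETD2 in HU, against 52.8 and 52.1 FPKM with siNT. KRTAP20-4 and PHLDA1, lower in VE-822 alone, had 0.58 and 0.21 in HU, and EREG had 0.47 in HU with VE-822, where siSETD2 libraries had 7.20 and 7.21 FPKM against 3.44 and 6.88 FPKM.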

How the results depend on the processing

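Genes called, 0 as reported, stayed at 0 with a pseudocount of 0.1, a mean of at least 5 FPKM, both rescalings, either smaller set of libraries, limma-voom and each library left out. Without a filter on low values 31 were called, 18 higher and 13 lower, and 33 for the difference from the other treatments. Genes at unadjusted p under 0.05, 384 as reported, numbered 182 at a mean of at least 5 FPKM, 1679 without a filter and 1292 with only the 4 libraries; leaving out 1 library gave 200 to 380. They numbered 214 without siNT replicate 1, 240 without siSETD2 replicate 1 and 200 without siSETD2 replicate 2. The cause was not tested.

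Deviations of same-numbered libraries correlated at 0.36 to 0.75 among the other 6 groups and at 0.39 between the VE-822-alone groups. Between these 6 groups and the VE-822-alone groups they correlated at -0.05 to 0.30. Same-numbered libraries thus deviated together within each set and less or not at all between the sets. The fit used here has no term for this and leaves it in the error. A replicate block over all 8 groups gave 0 calls and 738 genes at unadjusted p under 0.05. With a block separate for VE-822 alone, 7 genes were called (among them ABCC2, SLC7A11, PPP1R35, MMP10, CST1 and LINC02561) and 1091 were at unadjusted p under 0.05. With the block in the other 6 groups, 6 were called (among them ABCC2, IRAK2, SLC7A11, MMP10 and CST1) and 1030 were at that limit; in both, 1 gene (CST1) differed from the other treatments. The 4 libraries with a block gave 2754 at that limit.

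SETD2 ranged from -1.08 to -0.84. Of the 134 genes that the naming rule gives, 9 turned their direction in some setting. All 9 were among the 36 not followed for the text, a choice made after values were seen. Their absence from the results above is therefore no evidence that the genes described there are stable. In 12 of the 13 instances of a turn 1 library was left out. Without siNT replicate 1, RPL38 had -0.23 (0.25 with all libraries), RPL37 -0.20 (0.20), RPL35 -0.25 (0.16), RPS16 -0.03 (0.15) and SDF2L1 -0.02 (0.19). RPL35 and SDF2L1 also turned without siSETD2 replicate 2, at -0.09 and -0.04, and PWWP2B had 0.0057 (-0.17) without siSETD2 replicate 1. The other 3 belong to mismatch repair and reached at most 0.068. Besides IL6, which was not followed through the alternatives, 10 genes were named after their values were seen. Of these 10, MMP3 had -0.046 without siNT replicate 2 and RELA -0.015 without siSETD2 replicate 2 (0.109 without siSETD2 replicate 1).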
